A study of Caenorhabditis elegans with 4 samples.

Results

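Many peaks called for NHR-10, a nuclear hormone receptor of Caenorhabditis elegans, lay in tight groups in the middle of the autosomes. These clustered peaks are peaks of the authors' combined list on chromosomes II, III, IV or V. Their midpoint lay within 25 to 75% of the chromosome's span, and another combined peak lay at a gap below 5000 bp on either side. The rule found 312 of the 1235 combined peaks, in 119 groups. The other 258 peaks of the same centres, with no neighbour at such a gap, are called isolated here. Peaks on chromosome I are counted in the whole list but lie outside the rule. Close spacing was not particular to the centres, since 46.7% of peaks on the arms of these autosomes and 46.9% on X had such a neighbour. Positions and gaps chose the peaks, so numbers of peaks, gaps and densities are given as descriptions. Width and score come from the same peak calls and are described in the same way.

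The data are chromatin immunoprecipitation followed by sequencing (ChIP-seq) of hermaphrodites at L4, the last larval stage, with 2 ChIP samples and 2 Input samples. All 4 came from strain OP239, which carries the unc119 mutation ed3 and the integrated transgene wgIs239, grown at 20 °C on E. coli and fixed with 2% formaldehyde. The ChIP samples were precipitated with an antibody against the green fluorescent protein (GFP) tag, and the Input samples are chromatin kept before that step. In wgIs239, nhr-10 is fused to TY1, EGFP and FLAG tags beside an unc119 rescue copy. It comes from 1 bombarded line, the genotype lists no change at the worm's own nhr-10 gene, and no untagged strain or other factor is among the samples. Sites particular to NHR-10 therefore cannot be told apart from sites that any tagged factor would give. Each ChIP sample has its own peak list, with 525 peaks in replicate 1 and 593 peaks in replicate 2.

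Nuclear hormone receptors are transcription factors that bind DNA through paired zinc fingers and, in many cases, respond to small lipophilic molecules. The family is much enlarged in nematodes. NHR-10 is known, together with NHR-68, for switching on genes of the propionate shunt, a route that breaks down propionate when the vitamin B12-dependent route is limiting. The centres of the worm's autosomes recombine little and are rich in conserved and essential genes, whereas the arms recombine more and hold more repeats. The peaks are on WormBase WS180. The gene table used here is on WBcel235, so no gene, exon, intron or promoter was assigned to a peak, and no genome of the peaks' build was used for sequence.

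Clustered peaks were spread over all 4 centres. Chromosome V held 106 of them, IV held 84, III held 64 and II held 58. Per megabase of centre this came to 10.2 clustered against 7.03 isolated peaks on V, and to 9.62 against 7.10 on IV. On III there were 9.30 clustered and 8.57 isolated peaks per megabase. Chromosome II was the only one of the 4 with fewer clustered than isolated peaks, at 7.62 against 8.40 per megabase. As a share of the centre's peaks, the clustered ones made up 59.2% on V, 57.5% on IV, 52.0% on III and 47.5% on II. In the whole combined list 49.6% of peaks had a neighbour at a gap below 5000 bp, against 46.7% of the peaks on the arms of the same autosomes and 46.9% of those on X. The rule used these gaps, so nothing is read from the differences.

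**Figure D1:**
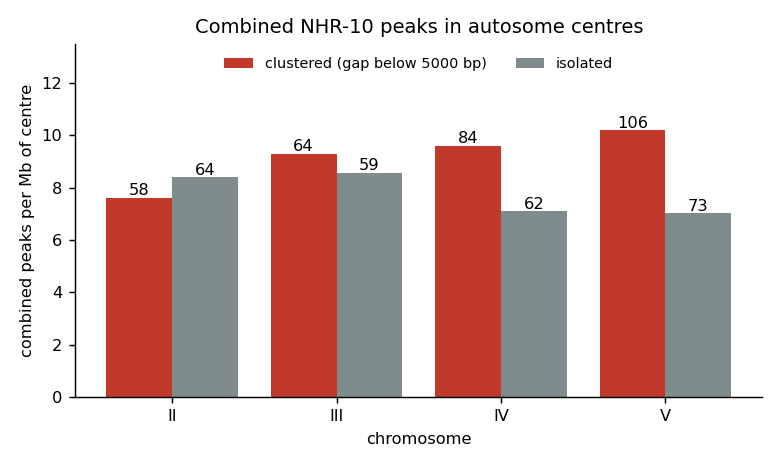
Combined peaks per megabase of chromosome centre (y axis) on II, III, IV and V (x axis), with clustered peaks in red and isolated peaks in grey, and the number of peaks above each bar. The clustered bars run between 7.62 on II and 10.2 on V, and II is the chromosome where the isolated bar is the taller one.

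Within the centres the number of clustered peaks varied from slice to slice. When each centre was cut into 5 slices of 10% of the span, the slice from 55 to 65% held 96 clustered and 48 isolated peaks over the 4 chromosomes. The other slices held 51 to 59 clustered peaks each, beside 46 to 59 isolated ones. Chromosome V had 40 clustered and 10 isolated peaks in that slice. On IV the slice from 45 to 55% was the fullest, with 26 clustered and 6 isolated peaks, while the same slice on II held 4 clustered and 16 isolated ones. At the scale of 1 Mb, the stretch from 13 to 14 Mb on V held 26 clustered peaks in 7 groups, beside 9 isolated peaks. The next were 5 to 6 Mb on III, with 20 peaks in 8 groups, and 8 to 9 Mb on IV, with 18 peaks in 7 groups.

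Most groups were pairs. Of the 119 groups, 70 held 2 peaks, 32 held 3, 10 held 4, 6 held 5 and 1 held 6. A group spanned 4480 bp at the median, with a range of 1574 to 21846 bp, and its peaks covered a median of 52.5% of that span (14.5 to 94.9%). Chromosome V had 37 groups, IV had 35, III had 25 and II had 22. The nearest other group on the same chromosome lay 84702 bp away at the median, and 36 groups had one at less than 50 kb. The closest were 2 groups on V, at 8651139-8655372 and 8661089-8672186, which lay 5717 bp apart and so just missed being joined.

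The best-scored group was on II at 8740083-8748044 and held 3 peaks. PeakSeq gives each peak a q-value, shown here as −log10 q, so that a larger number is a smaller q. The right-hand peak, 8743101-8748044, was 4944 bp wide with a −log10 q of 87.5, at rank 6 of the combined list. Its neighbours to the left, 8741260-8742884 and 8740083-8740954, had 18.2 and 9.52. All 3 overlapped a peak in both replicates, and the strongest peak of the group reached 45.6 in replicate 1 and 31.5 in replicate 2 (mean 38.5 ± 10.0 SD, n = 2). In replicate 2 the large combined peak corresponded to separate peaks at 8743191-8745538 and 8746128-8747787.

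The longest group was also on II, at 10541954-10563799, with 5 combined peaks in 21846 bp. Replicate 1 had 5 peaks there and replicate 2 had 7, the most of any group in either list. The leading combined peak, 10541954-10549744, was 7791 bp wide and stood at rank 7 with a −log10 q of 83.8. No single replicate peak came near that value, since the best in the group were 22.9 in replicate 1 and 22.2 in replicate 2 (mean 22.5 ± 0.49 SD, n = 2). The wide combined peak took in 2 peaks of replicate 1 and 3 peaks of replicate 2. The other 4 combined peaks had −log10 q of 26.2, 29.4, 9.89 and 18.1 in order along the chromosome. The one at 10558495-10560004, with 9.89, had no counterpart in replicate 1 and overlapped a peak in replicate 2.

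Of the 10 best-ranked groups, 3 lay on V between 11820117 and 12004894. The group at 11885099-11890193 held 2 peaks, the better one at rank 16 with a −log10 q of 64.4, and its best replicate peaks had 30.1 in replicate 1 and 40.7 in replicate 2. At 11820117-11825304 a group of 3 was led by a peak at rank 23 (57.5), with 30.4 in replicate 1 and 28.3 in replicate 2. Its peak at rank 92 was in both replicates as well, and the one at rank 485 was in neither. The group at 12001965-12004894 paired a peak at rank 49 (43.4) with one at rank 618 (6.65), which neither replicate list held.

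On III the best-ranked group was the pair at 3864119-3868093. Its right-hand peak stood at rank 24 with a −log10 q of 55.8 and was in both replicates, at 31.7 and 29.6. The left-hand peak was near the end of the combined list, at rank 1229 with 3.79, and was in neither. At 8794527-8806478 on III a group of 4 was led by a peak at rank 29 (50.9), and 3 of its 4 peaks were in both replicates. The leading group on IV, at 11913385-11918288, had its best peak at rank 27 (53.3, with 24.0 in replicate 1 and 23.1 in replicate 2) and 2 weaker peaks that neither replicate held. A group of 4 on IV at 8527199-8535506 was led by a peak at rank 46 (44.5), with 22.9 in replicate 1 and 24.2 in replicate 2. Another of the 10 leading groups was the pair on II at 11149771-11154144, with ranks 22 and 251 and both peaks in both replicates.

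Apart from the long group on II, the groups of 5 or 6 peaks had best ranks of 124 to 333. The fullest held 6 peaks on V at 13081011-13090799, with a best rank of 124 (−log10 q of 22.5) and a weakest peak of 4.17. Its best replicate peaks scored alike, at 10.9 in replicate 1 and 10.8 in replicate 2, and each replicate had 3 peaks in it. Of the groups of 5, 1 was the long group on II and 3 were on V. Those on V lay at 13650104-13659534 (best rank 127), 13369526-13377412 (best rank 217) and 9159341-9165732 (best rank 333). The first of them had 4 peaks in each replicate and 4 of its 5 combined peaks in both. The remaining groups of 5 were on IV at 5651193-5659982 (best rank 203, with 3 peaks in each replicate) and on III at 5828279-5839585 (best rank 221, with 2 peaks in each).

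**Figure D2:**
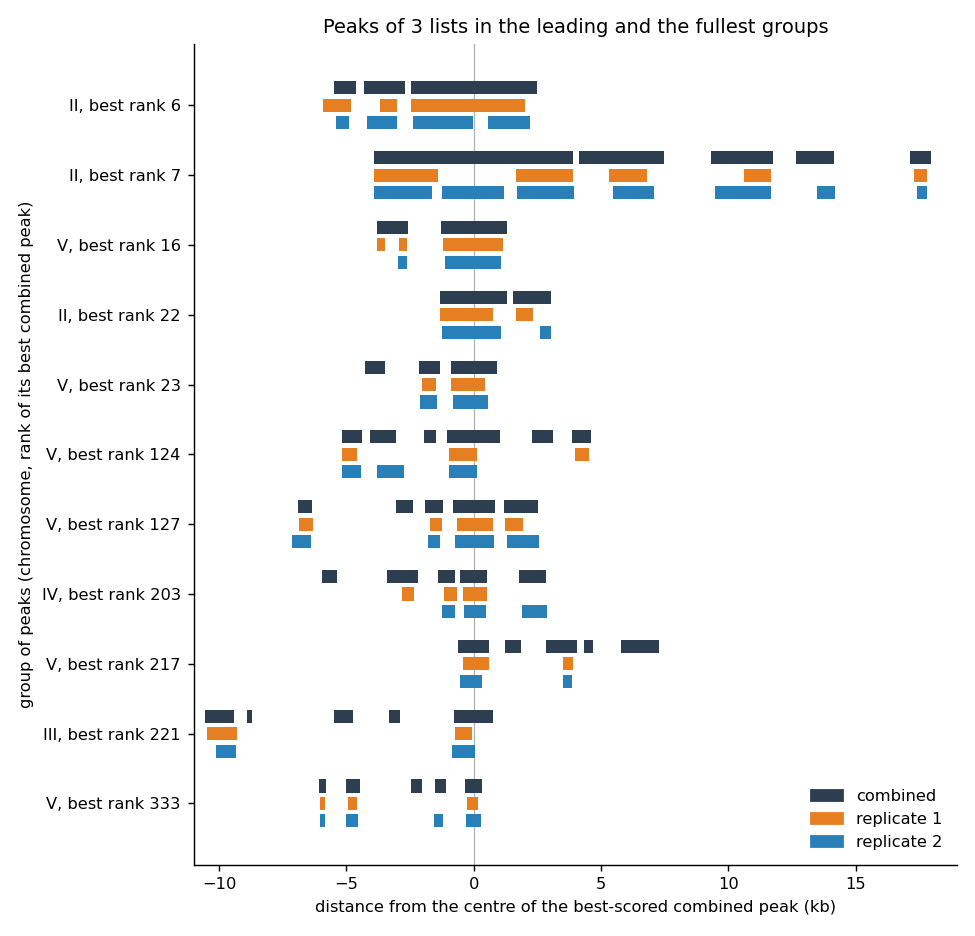
Peaks of the combined list (dark), replicate 1 (orange) and replicate 2 (blue) in the 5 best-ranked groups and all groups of 5 or 6 peaks, drawn against distance in kb from the centre of the group's best combined peak (x axis). The best combined peak overlaps a peak of both replicates in every group drawn, while several of the smaller combined peaks have none in either replicate.

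Gaps between neighbouring peaks of a group were mostly short. The 119 groups held 193 neighbouring pairs, with gaps of 201 to 4793 bp and a median of 1125 bp. Gaps below 500 bp made up 46 of the pairs, gaps of 500 to 1000 bp made up 45, gaps of 1000 to 2000 bp made up 45 and gaps of 2000 to 5000 bp made up 57. Midpoints of neighbours lay 2088.5 bp apart at the median. Taken peak by peak, 163 of the 312 clustered peaks (52.2%) had their nearest neighbour at under 1000 bp. Scores of neighbours bore little relation to each other, with a Spearman's rho of 0.036 for −log10 q of the left and right peak over the 193 pairs. These pairs share peaks and libraries, so the value is a description.

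Where a replicate list had a peak at both peaks of a pair, it rarely joined them. Only 1 of the 193 pairs was bridged by a single replicate peak, in replicate 1, across a gap below 500 bp. Both peaks of a pair had a separate counterpart in replicate 1 for 39 pairs and in replicate 2 for 56. In 29 pairs (15.0%, 95% Wilson interval 10.7–20.7%) this held in both replicates. More often 1 peak of the pair was found and the other was not, in 96 pairs in replicate 1 and 85 in replicate 2. Neither peak was found in 57 pairs in replicate 1 and 52 in replicate 2. In most of the 193 pairs a join could therefore not be seen. The combined list may also hold the reads of both replicates, and its peaks were wider. For the 111 clustered peaks matched to 1 peak in each replicate, the median combined width was 1104 bp. It was 694 bp in replicate 1 and 760 bp in replicate 2. A narrower replicate peak can hardly span a gap between wider combined peaks. The low number of joins is thus largely given in advance, and nothing is read from it. Among pairs with gaps below 500 bp, 12 of 46 (26.1%, 15.6–40.3%) had separate peaks in both replicates, against 6 of 57 (10.5%, 4.91–21.1%) at gaps of 2000 to 5000 bp. The intervals overlap and the pairs were not matched for rank. In the other direction, 6 clustered peaks overlapped more than 1 peak of replicate 1 and 10 overlapped more than 1 of replicate 2.

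**Figure D3:**
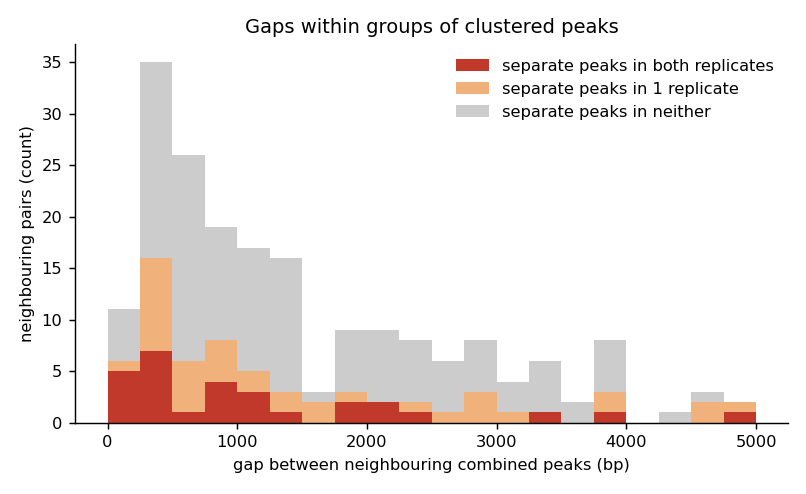
Number of neighbouring pairs of combined peaks (y axis, stacked) by the gap between them in bp (x axis, bins of equal width), split by whether the 2 peaks had separate counterparts in both replicates (red), in 1 (orange) or in neither (grey). The tallest bins lie below 1000 bp, and the 29 red pairs include 12 below 500 bp and 6 beyond 2000 bp.

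Clustered peaks were wider and had smaller q-values than isolated peaks of the same centres in the combined list. Their median width was 762 bp, with quartiles of 514 and 1218 bp, and the isolated peaks had a median of 627.5 bp (quartiles 447 and 897 bp). Peaks on the arms had 706 bp and those on X 733 bp. Width went with rank, and the median rank was 554.5 for clustered and 726 for isolated peaks. With the combined list cut by rank into 5 equal parts, best first, clustered medians were 1622, 918, 643, 588 and 488.5 bp. Isolated medians were 1505, 875, 625.5, 569 and 419 bp, so the classes lay closer within each part. The median −log10 q was 7.23 for clustered and 5.85 for isolated peaks, with 6.36 on the arms and 7.23 on X. A q-value below 1e-10 was reached by 114 clustered peaks (36.5%) and 58 isolated ones (22.5%), where 30.1% of all combined peaks reached it. On the arms the share was 28.3% and on X 33.9%. Among the best 100, which are 8.10% of the list, stood 25 clustered peaks (8.01%). The best 100 also held 14 isolated peaks (5.43%), 14 arm peaks (5.15%) and 35 peaks on X (12.6%). The highest −log10 q of an isolated centre peak, 184, was above the highest of a clustered one.

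In the replicate lists the difference in width was smaller and that in score had no common direction. Replicate 1 peaks overlapping clustered peaks had a median width of 664 bp, against 625.5 bp for those overlapping isolated peaks, and replicate 2 peaks had 706 bp against 644 bp. The ratio of the medians was 1.08 ± 0.02 (SD, n = 2). For −log10 q the medians were 5.90 against 6.37 in replicate 1 and 6.90 against 6.00 in replicate 2. The ratio was below 1 in replicate 1 and above 1 in replicate 2, at 0.927 and 1.15.

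Before ranks were taken into account, clustered peaks were found in both replicate lists more often than isolated ones, and as often as peaks on X. Of the 312 clustered peaks, 124 had a counterpart in both replicates (39.7%, 95% Wilson interval 34.5–45.3%), against 63 of the 258 isolated peaks (24.4%, 19.6–30.0%) and 32.6% of all combined peaks. Peaks on X stood at 39.7% (110 of 277) and those on the arms at 31.3% (85 of 272). Clustered and isolated peaks differed by 15.3 percentage points (95% interval 7.64–22.7). That difference was 7.49 points when an overlap of at least 50% of both peaks was asked for and 7.30 with midpoints within 200 bp. In the better-ranked 50% of each list, regrouped after the cut, it was 1.39 points, at 33.1% of 127 clustered and 31.7% of 161 isolated peaks. Clustered peaks that lost their neighbours to the cut count as isolated there, and the replicate lists were cut as well. That value therefore does not compare the 2 classes used elsewhere. In neither replicate were 132 clustered peaks (42.3%) and 134 isolated peaks (51.9%), where X had 43.0% and the whole list 49.1%. Replicate 1 alone held 21 clustered and 20 isolated peaks, and replicate 2 alone held 35 clustered and 41 isolated ones. No test was run on these shares: the combined list may hold the reads of both replicates, and peaks of a group are not independent. The intervals cover the counting of peaks only.

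Much of that difference went with rank. The combined list was cut by rank into 5 equal parts. At ranks 1 to 247, 70 of 71 clustered and 37 of 37 isolated peaks were in both replicates. At ranks 248 to 494 the counts were 41 of 70 clustered peaks (58.6%, 46.9–69.4%) and 20 of 49 isolated peaks (40.8%, 28.2–54.8%). Ranks 495 to 741 had 12 of 69 (17.4%) against 6 of 50 (12.0%), with intervals that overlap widely. At ranks 742 to 988, 1 of 44 clustered and 0 of 64 isolated peaks were in both, and a count of 0 allows a share of up to 4.69% there (3 counts of the total; the Wilson upper limit is 5.66%). Ranks 989 to 1235 had none of 58 in either class, which allows up to 5.17% in each (Wilson upper limit 6.21%). With the isolated share weighted to the ranks of the clustered peaks it became 34.6%, and the difference shrank to 5.18 percentage points. Presence in at least 1 replicate had no common direction. It was lower for clustered peaks at ranks 248 to 494, with 84.3% of clustered and 89.8% of isolated peaks, and at ranks 495 to 741, with 52.2% of clustered and 58.0% of isolated peaks. It was higher for them at ranks 742 to 988, with 18.2% of clustered and 15.6% of isolated peaks, and at ranks 989 to 1235, with 10.3% of clustered and 6.90% of isolated peaks.

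**Figure D4:**
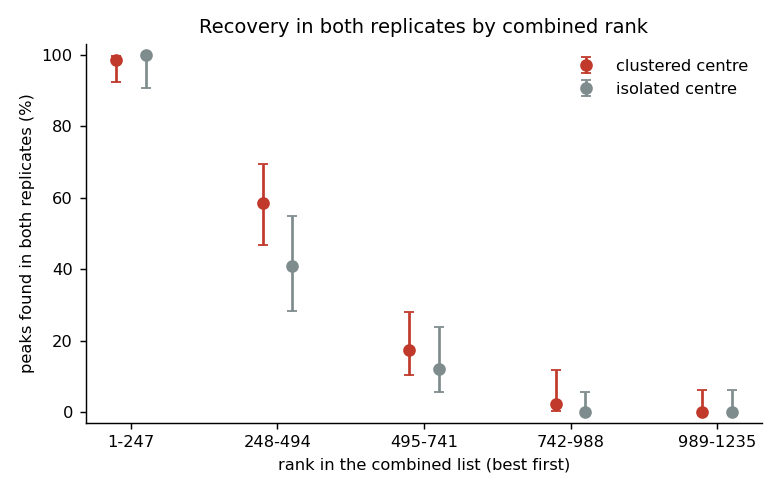
Share of peaks found in both replicates (y axis, %) by combined rank cut into 5 parts (x axis, best ranks on the left), for clustered peaks in red and isolated peaks in grey; bars are 95% Wilson intervals. Both classes fall together along the ranks, and their intervals overlap in all 5, with the widest separation at ranks 248 to 494.

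By chromosome, the share of clustered peaks in both replicates was 43.1% on II (25 of 58), 43.8% on III (28 of 64) and 42.5% on V (45 of 106). Chromosome IV was lower at 31.0% (26 of 84, 95% Wilson interval 22.1–41.5%), an interval that overlaps those of the others. Isolated peaks stood at 32.8% on II, 20.3% on III, 19.4% on IV and 24.7% on V, below the clustered share on each. By distance to the nearest neighbour, the share was 48.3% (38.1–58.6%) of the 87 clustered peaks with a gap below 500 bp. It was 38.2% (28.1–49.4%) of 76 at 500 to 1000 bp and 31.3% (21.2–43.4%) of 64 at 1000 to 2000 bp. Beyond that it was 38.8% (29.2–49.5%) of 85. The median −log10 q of these 4 classes was 8.32, 8.18, 6.09 and 6.62 in the same order. The shares were not matched for rank, so nothing is read from closeness.

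Most groups left a trace in both replicates. At least 1 peak of each replicate overlapped 84 of the 119 groups (70.6%, 95% Wilson interval 61.9–78.0%). A replicate peak anywhere in the group's span counted, gaps included, and each group holds several combined peaks. The share is therefore not on the same footing as the 32.6% of single combined peaks in both replicates. No share for groups elsewhere is given beside it, so it is a description. Replicate 1 alone had a peak in 6 groups, replicate 2 alone in 9, and 20 groups (16.8%, 11.2–24.5%) had none. The best-ranked group with none was the pair at 9780552-9783294 on III, with ranks 308 and 779. Its better peak, 9781564-9783294, had a −log10 q of 11.7 and a width of 1731 bp.

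As groups, however, they were seen less completely. At least 2 peaks lay in the group in both replicates for 37 groups (31.1%, 23.5–39.9%), in replicate 1 for 45 and in replicate 2 for 54. These are replicate peaks anywhere in the group, so they need not lie on 2 combined peaks. The group on V at 14363536-14369180, for example, had 2 peaks in each replicate. Yet 1 of its 3 combined peaks was in both replicates and 2 were in neither. The share for both was 15.1% of 53 groups in the better-ranked 50% of each list, regrouped after the cut. A group held 2.62 combined peaks on average, against 1.27 peaks in replicate 1 and 1.43 in replicate 2. The replicate lists are shorter throughout, with 525 and 593 peaks against 1235 combined. Replicate 1 had a counterpart for 46.5% of clustered and 38.9% of all combined peaks, and replicate 2 for 51.0% and 44.6%. Fewer replicate than combined peaks is thus not particular to the groups. Both replicates had fewer peaks than the combined list in 82 groups, and the same number in 8. In 6 groups a replicate had more. The share with at least 2 peaks in both replicates was 12 of 70 among pairs, 12 of 32 among groups of 3, 6 of 10 among groups of 4 and 7 of 7 among those of 5 or 6. Longer groups offer more span to be overlapped, so this order is a description.

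Neighbours were also counted within each replicate list. Over all peaks in these centres, 47.4% of replicate 1 and 47.7% of replicate 2 peaks had another peak of the same list at a gap below 5000 bp. Of the replicate 1 peaks in autosome centres that overlapped a clustered peak, 98 of 150 (65.3%, 57.4–72.5%) had such a neighbour. In replicate 2 this held for 124 of 170 (72.9%, 65.8–79.1%). Among replicate peaks that overlapped an isolated combined peak it held for 17 of 92 (18.5%) in replicate 1 and for 11 of 110 (10.0%) in replicate 2. Nearly all replicate peaks here lie on a combined peak, so the rule largely fixes this contrast and nothing is read from it.

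Each group was divided into its best-scored peak and its other peaks. The best-scored peak of a group had a median width of 1103 bp and a median −log10 q of 12.9 (n = 119), against 672 bp and 6.01 for the other peaks (n = 193). The best peak was picked by its score, so the difference in score follows from the choice, and recovery in the replicates goes with rank. On the −log10 scale, which is not a scale of signal, the best value was 1.58 times the second at the median. It was less than 2 times the second in 71 groups (59.7%). At the far end it was 14.7 times the second, in the pair at 3864119-3868093 on III. The best peak overlapped both replicates in 78 of 119 groups (65.5%, 56.6–73.5%), and the others in 46 of 193 cases (23.8%, 18.4–30.3%). With the other peaks weighted to the ranks of the best peaks, their share became 64.7%, and the difference of 41.7 percentage points shrank to 0.82. At ranks 248 to 494, for example, 20 of 33 best peaks and 21 of 37 other peaks were in both replicates.

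The leading peak was also the leading one in the single libraries for most groups with a peak in both replicates. Of the 84 groups with a peak in both replicates, the best replicate peak overlapped the best combined peak in 72 groups in replicate 1 and in 72 groups in replicate 2. Both did so in 66 (78.6%, 68.7–86.0%). In 24 of the 84 groups each replicate had exactly 1 peak, so its best peak was its only one. The combined list may also hold the reads of both replicates. Part of this agreement is therefore given in advance, and it is a description. In the 49 groups of 3 or more, the best peak stood at an end of the group in 34 (69.4%). End positions make up 57.0% of the 172 peaks. That share counts larger groups more, whereas each group has 1 best peak, so nothing is read from the difference. Other peaks lay to the left of the best peak in 106 cases and to the right in 87, at a median distance between midpoints of 2869 bp (785 to 17547 bp).

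Scores of clustered peaks rose together in the 2 libraries. For the 111 clustered peaks matched to exactly 1 peak in each replicate, −log10 q in replicate 1 and replicate 2 gave a Spearman's rho of 0.68 and a Pearson's r of 0.88. For the 55 isolated peaks matched in the same way they were 0.78 and 0.90. These values are across peaks that share libraries and had to pass the authors' threshold in both lists, and are given as a description. Replicate 2 had the higher −log10 q for 67 of the 111 (60.4%), with a median of 7.96 against 6.74 in replicate 1. The 2 replicate values summed to 1.06 times the combined value at the median, with quartiles of 0.917 and 1.19. Combined peaks were the wider ones, at 1104 bp at the median for these 111, against 694 bp in replicate 1 and 760 bp in replicate 2.

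**Figure D5:**
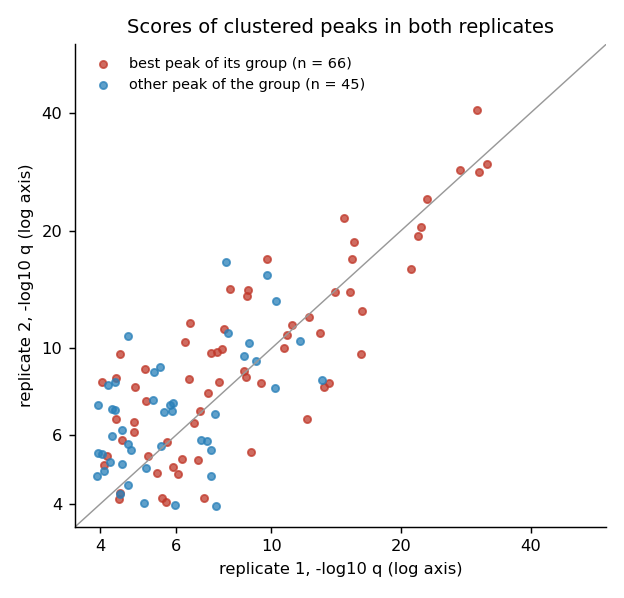
Score in replicate 2 against score in replicate 1 (−log10 q, log axes) for the 111 clustered peaks matched to 1 peak in each replicate, with the best peak of a group in red and other peaks of the group in blue; the grey line marks equal scores. The points scatter around the line below 10 and follow it more closely at the top, where the best peaks of the groups lie.

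Few peaks lay at the limits of the rule. Gaps of 4000 to 5000 bp were found for 9 clustered peaks, and 15 isolated peaks had gaps of 5000 to 6000 bp. Just inside lay the pairs on III at 6895078-6895504 and 6900297-6900864 (4793 bp, −log10 q of 6.72 and 8.09) and at 6415453-6416041 and 6420810-6422915 (4769 bp, 6.57 and 24.7). Just outside lay 6836277-6837305 on II (5077 bp, 6.08) and 5747459-5748149 on IV (5093 bp, 4.25). By position, the clustered peaks nearest the limits were 4400858-4401305 on IV at 25.2% of the span (4.38) and 15568884-15570215 on V at 74.9% (17.2). The nearest close-spaced peaks beyond them were 4236520-4236944 on IV at 24.2% (5.09) and 11540465-11540846 on II at 75.8% (4.87).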

How the data were processed

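The values used are the authors' deposited peak lists, 1 per ChIP replicate and 1 combined. Peaks were called with PeakSeq on WormBase WS180, per the file headers and the files' source column. Not given in the sources used here: the PeakSeq version, its control, the aligner and how the combined list was made. Every peak carries the authors' q-value and their deposited start and end, counted from 1; no read count stands beside it, so depth is unknown. Sample titles gave the groups and replicate numbers, since the description fields list the antibody under the inputs. The labels do not say whether replicates were separate cultures. No Input values were used.

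Each chromosome's span ran to its largest peak end in any list. A gap is the next start minus the previous end, and peaks linked by gaps below 5000 bp formed a group. Peaks were ranked by q, ties by width. Overlap meant at least 1 bp. Where several replicate peaks overlapped, the one of largest overlap gave the score. Shares have 95% Wilson intervals, and differences of shares have intervals combined from these. No hypothesis test was run. The grouping was tested on simulated peaks. The regions described were the 10 best-ranked groups, the best on each chromosome, all groups of 5 or more, the fullest in each replicate, the best with no replicate peak, and peaks at the limits. The members and lists were chosen with earlier results of these data known. Python 3.11.15, numpy 2.4.6, pandas 2.3.3, scipy 1.17.1 and matplotlib 3.10.9 were used.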

Additional observations from a re-analysis of the deposited data

How the results depend on the processing

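No value changed sign under any alternative run. The 312 clustered peaks became 185 when peaks at gaps below 1000 bp were merged first and 127, in 53 groups, in the better-ranked 50% of the combined list; gaps of 2500 or 10000 bp and middles of 40 or 60% of the span gave 252 to 354. The share in both replicates (39.7%) was 25.3% with an overlap of at least 50% of both peaks, 24.4% with midpoints within 200 bp and 33.1% in the better-ranked 50% of each list. Leaving out a replicate, so that presence in the other sufficed, gave 46.5% to 50.96%. The difference from isolated peaks (15.3 points) was 7.49 with 50% overlap, 7.30 with midpoints, 1.39 in the better-ranked 50% of each list and 5.18 with isolated peaks weighted by rank, an alternative chosen after seeing the data; leaving out a replicate gave 10.7 to 14.3. Groups with at least 2 peaks in both replicates (31.1%) fell to 15.1% in the better-ranked 50% of each list, and single replicates gave 37.8% to 45.4%. The median width of clustered over isolated peaks (1.21) was 1.08 in the better-ranked 50% and 1.25 at a gap of 10000 bp. Spearman's rho (0.68) was 0.81 with 50% overlap and 0.77 with midpoints. The lead of best over other peaks (41.7 points) was 25.6 with 50% overlap and 25.8 with midpoints, 36.3 to 39.9 with a replicate left out, and 0.82 with other peaks weighted to the ranks of best peaks, also chosen after seeing the data. Stricter matching lowers shares by its construction, and asking for presence in only 1 replicate raises them in the same way. The better-ranked 50% was regrouped after the cut, so its clustered and isolated peaks are not the classes of the main run. The cause of the other shifts was not tested. Crediting each replicate peak to 1 combined peak, also chosen after seeing the data, gave 39.4%. No paired analysis was possible because no result here comes from a test and no Input values were used. Depth limits are unknown, as the lists hold no read counts.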

Other observations

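A few replicate peaks in these chromosome centres had no combined peak under them. There were 7 of 249 in replicate 1, the best at rank 383, and 3 of 283 in replicate 2, the best at rank 496. In replicate 1, 4 of the 7 lay at less than 5000 bp from a group of clustered peaks, and in replicate 2 none of the 3 did.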
